A study of Oryctolagus cuniculus with 3 samples.

Results

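Kinesins are motor proteins that use ATP to walk along microtubules or to shorten them. One set of kinesins builds the spindle, moves chromosomes and organises the midzone between separating chromosomes at cell division. Another set carries vesicles, mitochondria and other organelles, and a smaller set works in cilia, at centrioles or in signalling. A cumulus-oocyte complex is the oocyte with the cumulus cells around it, and both cell types use kinesins: the oocyte assembles a meiotic spindle, and proliferating cumulus cells assemble mitotic spindles. The kinesins were chosen by name. Of 39681 gene rows, 20008 of them coding, 51 had a name that begins with KIF followed by a digit or C. They comprised 37 annotated motor genes, KIF1BP, which encodes a kinesin-binding protein without a motor, and 13 rows that the assembly had placed at 5 of these genes. By role, 14 motor genes were assigned to the spindle, 16 to transport and 7 to cilia, signalling or other functions.

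Complexes had been collected at slaughter from the ovaries of female IRA rabbits (Oryctolagus cuniculus). The study divided 150 animals aged 35 days into 3 groups and kept them for 4 weeks in rooms that differed in ammonia. The control group, CG, had less than 3 ppm of NH3, the group LAC had 10 ppm and the group HAC had 30 ppm. Each group is represented by 1 library of ribosome-depleted total RNA, and how many animals each pool of RNA came from is not stated. With 1 library per group no difference has a replicate check, so no test, standard error or p-value is given, and values compare libraries and not conditions.

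The gene tables hold 78461882 estimated counts in CG and 68523767 in LAC. The gene table deposited for HAC was identical to that of LAC in all 39681 rows, so the kinesin genes could be compared only between CG and the library labelled LAC. By the statistics blocks, it is uncertain which library the shared table describes. Its highest FPKM (fragments scaled by transcript length and depth), 39491.82, is listed in the statistics of HAC. Those of LAC list 86393.85. The blocks themselves are crossed between both files: the statistics of LAC list 72141648 valid reads, as the mapping block of HAC does, and the statistics of HAC list 72520954, as the mapping block of LAC does. At intronic rows of kinesins, the shared table changed from CG much as the long non-coding transcript values labelled LAC did. MSTRG.15455 went from 0.05 to 0.55 FPKM, and its transcript had 0.16 in CG, 1.77 in LAC and 0.24 in HAC. MSTRG.6789 went from 4.34 to 4.46 FPKM, and its transcript had 0.93, 0.96 and 2.14. Whether the label LAC itself is right was not tested. Spliced reads made up 22.01% of reads in the CG statistics, 16.23% in those of LAC and 19.89% in those of HAC. The tissue label was checked against markers. All 12 oocyte markers had counts in both libraries, with a summed level of 4250 CPM (counts relative to library size, scaled by trimmed mean of M values factors) in CG and 815 CPM in LAC. The 8 granulosa and cumulus markers that were matched also had counts in both, with 13863 and 13659 CPM. Markers listed for other cells had counts as well. Those of theca summed to 102 and 99.5 CPM, of epithelium to 82.9 and 21.8 CPM and of macrophages and monocytes to 52.5 and 24.1 CPM. Endothelial markers summed to 48.8 and 7.82 CPM and those of smooth muscle to 48.1 and 40.3 CPM.

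Most kinesin genes had fewer counts in LAC than in CG. Of the 37 motor genes, 34 had at least 10 estimated counts in 1 of the libraries. Differences are given as log2(CPM + 1) in LAC minus that in CG, a scale that understates the change of low genes, and a gene is called lower or higher when the difference is at least 1 in size. By this rule 9 kinesins were lower and 0 were higher, or 26.5% lower, where 11.0% of the 15009 coding genes with as many counts were lower and 1.89% were higher. In all, 28 kinesins lay below 0 and 6 above, and their median difference was -0.50, where the coding genes had -0.14. Of the 15009 coding genes, 9285 lay below 0 and 5724 above. Every count below 0 in the following groups is to be read beside that background. Among genes with a mean of at least 10 CPM, 6 of 26 kinesins were lower with a median of -0.54, beside 10.9% and -0.16 for 8462 coding genes. The 9 were KIF2C, KIF23, KIF4A and KIF20B of the spindle, KIF5A, KIF21B and KIF13B of transport, and KIF24 and KIF6 of the remaining group. KIF13B, at -1.03, lay just inside the limit and KIF20A, at -0.99, just outside. In bulk RNA, fewer cells of a type and less RNA per cell cannot be told apart.

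**Figure D1:**
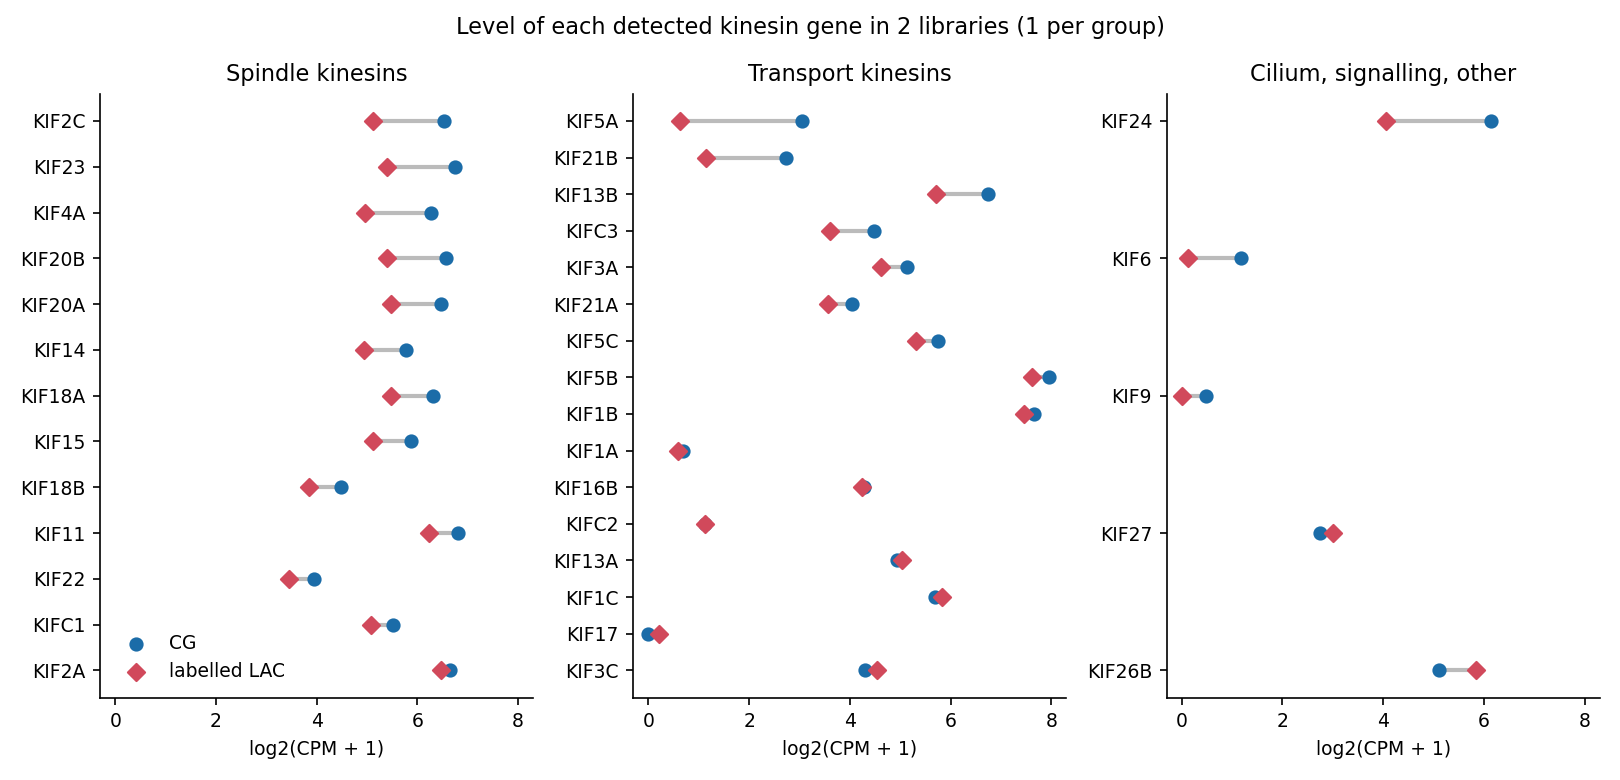
Level of the 34 kinesin genes with at least 10 estimated counts, as log2(CPM + 1) on the horizontal axis, in CG (blue circles) and in the library labelled LAC (red diamonds), with 1 library per group and the genes ordered by difference within each role. All 13 spindle kinesins lie to the left in LAC, while 4 of 16 transport kinesins and 2 of 5 others lie to the right.

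All 13 detected spindle kinesins lay below 0, with differences from -0.17 to -1.42. Of these, 4 passed the rule, and the group's median was -0.83. Its summed counts were 936 CPM in CG and 515 CPM in LAC, a ratio of 1.82. The fourteenth member, KIF2B, had no count in either library.

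The kinesins of the spindle midzone and midbody, where cytokinesis takes place, lay close together. KIF23, the motor of the centralspindlin complex, was at 106 CPM in CG against 41.1 in LAC, and was 2.59-fold lower (95% counting interval 2.44 to 2.75). Intervals cover counting error only and not variation between animals. KIF20B, a kinesin of the midbody, had 93.8 and 41.4 CPM and was 2.27-fold lower (2.13 to 2.41). KIF20A, which brings the chromosomal passenger complex to the midzone, had 87.5 and 43.5 CPM, a ratio of 2.01 (1.89 to 2.14), and just missed the rule. These 3 make up the kinesin-6 subfamily, and all of them lay between -0.99 and -1.35. KIF4A, a chromosome-bound kinesin that also limits microtubule growth in the midzone, had 75.9 and 30.1 CPM and was 2.52-fold lower (2.35 to 2.71). KIF14, a kinesin-3 motor needed to complete cytokinesis, had 54.0 and 29.8 CPM, a difference of -0.84 that did not pass.

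The kinesins that shorten microtubules were unequal. KIF2C, the depolymerase of the centromere, was at 91.7 CPM in CG against 33.7 in LAC, 2.72-fold lower (2.55 to 2.91), which at -1.42 was the lowest difference in the spindle group. KIF2A, the related depolymerase of spindle poles, had 99.0 and 87.7 CPM, a ratio of 1.13 (1.08 to 1.19) and the smallest difference of the group. KIF18A, a kinesin-8 that damps the movement of aligned chromosomes, had 78.3 and 43.6 CPM, a difference of -0.83. KIF18B, which controls the length of astral microtubules, had 21.2 and 13.5 CPM, a difference of -0.62. Both kinesin-8 motors lay below the coding median without passing the rule.

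The kinesins that set up spindle bipolarity differed less than those of the midzone. KIF11, which slides antiparallel microtubules apart, was at 111 CPM in CG against 74.0 in LAC, a ratio of 1.50 (1.43 to 1.57). KIF15, which can share that work, had 57.5 and 33.8 CPM, a difference of -0.75. KIFC1, a minus-end-directed motor that focuses spindle poles, had 44.9 and 32.8 CPM, a difference of -0.44. KIF22, a chromosome-arm motor, had 14.4 and 9.93 CPM, a difference of -0.50, but the annotation places all 1936 bases of its row inside a merged row on the opposite strand. The sources used here do not say if counts were resolved by strand, so the value of KIF22 is uncertain. KIF4A, KIF20A and KIF2A also overlap other genes on the opposite strand, PDZD11 by 492 bases, CDC23 by 456 bases and DIMT1 by 1423 bases. PDZD11 had 46.2 and 54.3 CPM, CDC23 had 55.9 and 40.6 CPM and DIMT1 had 53.8 and 44.4 CPM. PDZD11 was thus higher in LAC where KIF4A was lower, while CDC23 and DIMT1 were lower, as KIF20A and KIF2A were. The part of these overlaps in the values of KIF4A, KIF20A and KIF2A was not tested.

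**Figure D2:**
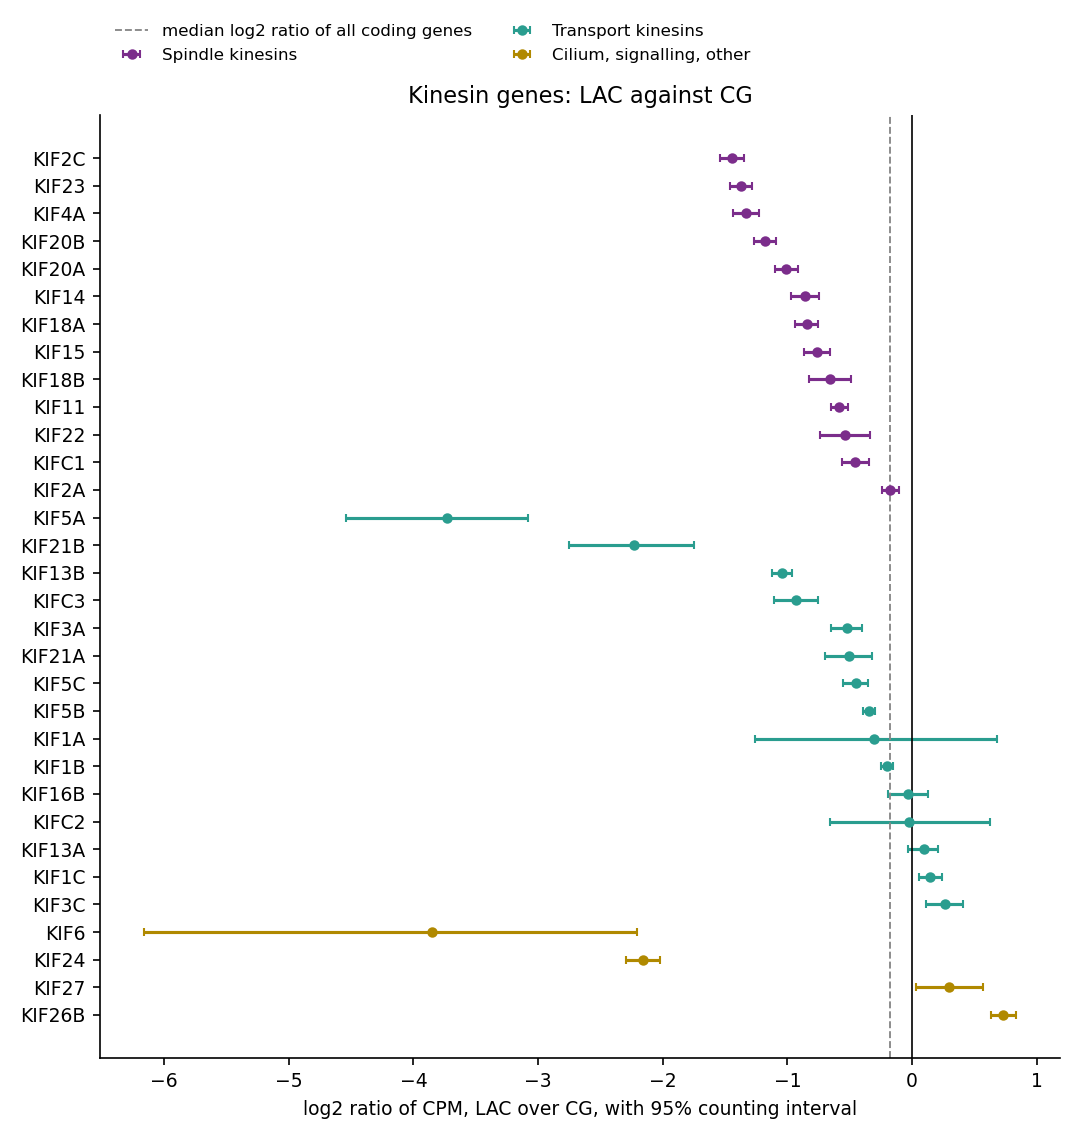
Ratio of CPM in the library labelled LAC to that in CG on a log2 axis, with its 95% counting interval as a bar, for the 32 kinesins with counts in both libraries, coloured by role. The dashed line marks the median log2 ratio of all coding genes, -0.18. KIF5A and KIF6 have the lowest ratios and wide intervals, and KIF26B has the highest ratio.

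The transport kinesins were spread more widely and lay nearer to the coding median. Of 16, 3 were lower and 0 higher by the rule, 12 lay below 0 and 4 above, and the median was -0.27. KIF16B and KIFC2, both just below 0, lay above it with scaling factors from coding genes alone. Their summed counts were 809 CPM in CG and 636 CPM in LAC, a ratio of 1.27. With members of at least 10 CPM on average, 1 of 11 was lower, KIF13B, and the median was -0.34. The spindle kinesins made up 50.4% of all kinesin CPM in CG and 41.9% in LAC, and the transport kinesins 43.6% and 51.7%. These are shares of counts, in which long transcripts weigh more than short ones.

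The 3 heavy chains of kinesin-1, the main motor of vesicles and organelles, did not move alike. KIF5A, a form best known from neurons, had 573 estimated counts in CG and 37 in LAC, or 7.24 and 0.54 CPM, and was 13.3-fold lower (8.47 to 23.3). KIF5B, the widely expressed form, had 248 and 195 CPM, a ratio of 1.27 (1.23 to 1.31). KIF5C, the other form best known from neurons, had 52.7 and 38.5 CPM, a ratio of 1.37 (1.28 to 1.47). Of the neuron and glia markers, RBFOX3 had no count in either library and SNAP25 had 0.39 and 0.38 CPM, and the 5 matched markers summed to 54.3 and 64.8 CPM. MAP2 had 35.9 and 52.0 CPM, while SYT1 had 15.3 and 11.2 CPM and S100B 2.68 and 1.31 CPM, so that 3 of the 4 with enough counts lay below 0. The part of these markers in the value of KIF5A was not tested.

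Within the kinesin-3 subfamily, which carries vesicles and endosomes, KIF13B alone passed the rule. KIF13B was at 106 CPM in CG against 51.3 in LAC and was 2.06-fold lower (1.95 to 2.19). KIF13A, its closest relative, had 29.7 and 31.6 CPM, a difference of 0.088. KIF1B, a carrier of mitochondria and vesicles, had 200 and 173 CPM, a difference of -0.20, and KIF1C had 50.4 and 55.8 CPM, a difference of 0.14. KIF16B, a motor of early endosomes, had 18.5 and 18.0 CPM. KIF1A, a carrier of synaptic vesicle precursors, had 0.62 and 0.50 CPM on a short unplaced sequence, and its interval for the ratio included 1 (0.62 to 2.40).

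In kinesin-4, KIF21B had 450 estimated counts in CG and 82 in LAC, or 5.68 and 1.21 CPM, and was 4.71-fold lower (3.36 to 6.74). Its difference of -1.60 on the log2(CPM + 1) scale was -0.78 with a pseudocount of 5 and -0.54 with the authors' gene FPKM, and neither passed the rule. Its relative KIF21A, which like KIF21B restrains microtubule growth, had 15.4 and 10.9 CPM, a difference of -0.47. In kinesin-2, the motor of transport along cilia, KIF3A had 33.9 and 23.5 CPM and KIF3C had 18.7 and 22.3 CPM, differences of -0.51 and 0.25. KIF17 had no count in CG and 11 estimated counts in LAC, at least 2.14-fold higher against a floor of 3 reads. With the counting error of those 11 counts included, the lower bound was 1.37-fold. Among the minus-end-directed motors, KIFC3, which works at cell junctions, had 21.3 and 11.2 CPM, a difference of -0.87, and KIFC2 had 1.19 and 1.16 CPM.

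The kinesins of cilia, centrioles and signalling went both ways. KIF24, which holds back cilium formation at the mother centriole, was at 69.7 CPM in CG against 15.6 in LAC and was 4.47-fold lower (4.07 to 4.91). KIF26B, an atypical kinesin of signalling, had 33.7 and 56.0 CPM, 1.66 times as much in LAC (1.55 to 1.78), the highest difference of all kinesins at 0.72 and still below the rule. KIF27, a kinesin linked to motile cilia, had 5.68 and 6.99 CPM, a difference of 0.26. KIF6 had 101 estimated counts in CG and 6 in LAC and was 14.4-fold lower (4.62 to 71.7), so the size of its difference is poorly fixed. KIF9 had 31 estimated counts in CG and none in LAC, at least 4.43-fold lower against the same floor and at least 3.31-fold by the counting interval, though its difference of -0.48 on the log2(CPM + 1) scale did not pass. With 2 of 5 lower, the group had a median of -0.48, which was -2.15 with a pseudocount of 0.1 and turned to 0.26 when genes under a mean of 1 CPM were left out. The call of KIF6 was lost under that minimum, with a pseudocount of 5 and with the authors' gene FPKM. KIF12 and KIF19 had no count in either library, which allows up to 0.0758 CPM in CG and 0.0884 CPM in LAC. KIF1BP, the binding protein without a motor, had 66.2 and 47.1 CPM, a difference of -0.48.

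The ratio of related kinesins within a library does not depend on how libraries are scaled. Ratios of counts mix level with length, so only their change between libraries is read here. The pairs were not part of the plan. Where a member had passed the rule, the ratio restates that call and is no separate evidence. Between the kinesin-1 chains, KIF5A per KIF5B went from 0.0291 in CG to 0.00279 in LAC, 10.4-fold lower (95% counting interval 6.52 to 16.7). KIF24 per KIF2A went from 0.704 to 0.178, 3.96-fold lower (3.56 to 4.39), and KIF2C per KIF2A from 0.925 to 0.384, 2.41-fold lower (2.22 to 2.62). All 3 belong to kinesin-13, so within that subfamily both relatives differed more between the libraries than KIF2A. KIF21B per KIF21A was 3.32-fold lower (2.32 to 4.74) and KIF13B per KIF13A 2.20-fold lower (1.99 to 2.43). KIFC3 per KIFC1 was 1.39-fold lower (1.20 to 1.60) and KIF23 per KIF20B 1.14-fold lower (1.05 to 1.24). KIF5C per KIF5B was 0.212 in CG and 0.197 in LAC, with an interval of the change that included 1 (0.997 to 1.16), and the other pairs had intervals that excluded it. The remaining 4 pairs went the other way. KIF18B per KIF18A went from 0.271 to 0.309, KIF20A per KIF20B from 0.933 to 1.05, KIF1C per KIF1B from 0.253 to 0.322 and KIF3C per KIF3A from 0.551 to 0.949. Their ratios of CG to LAC were 0.877 (0.770 to 0.998), 0.887 (0.813 to 0.967), 0.785 (0.731 to 0.843) and 0.580 (0.507 to 0.663).

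**Figure D3:**
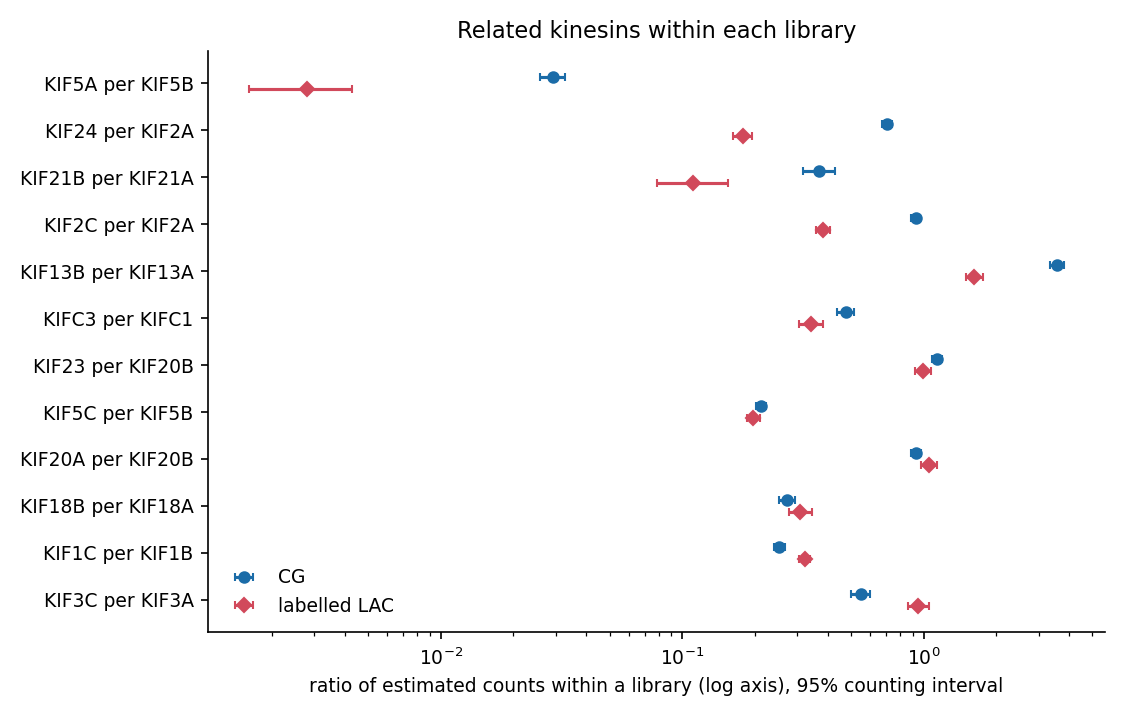
Ratio of estimated counts between related kinesins within CG (blue circles) and within the library labelled LAC (red diamonds) on a log axis, with 95% counting intervals as bars. KIF5A per KIF5B, KIF24 per KIF2A and KIF21B per KIF21A are lower in LAC without overlap of the intervals, and KIF3C per KIF3A is higher.

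The genes that work with spindle kinesins lay on the same side. Of 31 listed, 27 were matched, and 13 of these were lower and 0 higher, with all 27 below 0 and a median of -0.96. With scaling factors from coding genes alone, 8 were lower. RACGAP1, the partner of KIF23 in centralspindlin, was at 146 CPM in CG against 65.7 in LAC, a difference of -1.15. PRC1, which bundles midzone microtubules and recruits KIF4A, had 85.2 and 39.9 CPM, a difference of -1.07. Of the chromosomal passenger complex, which KIF20A relocates, AURKB had 15.2 and 10.2 CPM and INCENP had 38.9 and 21.97 CPM, differences of -0.53 and -0.79, and neither passed. TPX2, which helps KIF11 and KIF15 onto the spindle, had 173 and 91.4 CPM, and CENPE, itself a kinesin that the name pattern does not match, had 87.7 and 51.8 CPM, differences of -0.91 and -0.75. CENPF, a kinetochore protein, had 502 and 182 CPM and AURKA, a spindle pole kinase, 243 and 69.8 CPM, differences of -1.46 and -1.79. CKAP5, a microtubule polymerase, had 265 and 221 CPM, a difference of -0.26. RACGAP1, PRC1, AURKB, INCENP, TPX2 and CENPE, and the adaptors KIFAP3 and KLC1, were named for their link to a kinesin after their values had been seen.

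The genes that work with transport kinesins lay nearer to the coding median. Of 21 adaptors and cargo links, 19 were matched, 18 had enough counts and 2 were lower. That is 11.1%, beside 11.0% of coding genes. The adaptor median was -0.12, which turned to 0.057 with scaling factors from coding genes alone. The 2 lower adaptors were HOOK1, a link between cargo and motors, with 109 and 28.2 CPM, and TRAK1, the mitochondrial adaptor of kinesin-1, with 29.0 and 12.8 CPM. KIFAP3, the accessory subunit of kinesin-2, had 61.3 and 48.7 CPM and KLC1, a light chain of kinesin-1, had 37.6 and 31.6 CPM. HOOK3 had 234 and 297 CPM and KTN1, the kinesin receptor kinectin, 183 and 164 CPM. Dynein and dynactin, the motor complex of the opposite direction, had 4 of 26 lower (15.4%) and a median of -0.081, which turned to 0.091 with the same factors. DYNC1H1, the dynein heavy chain, had 510 and 672 CPM, while DYNC1I1, an intermediate chain, had 30.5 and 6.99 CPM and NIN, a centrosomal dynein activator, 90.7 and 25.0 CPM. The other lower genes of that list, named after their values had been seen, were DYNC1LI1 and NDEL1. Of 19 tubulin genes, the track itself, 10 were matched and 2 were lower (20%). These were TUBA4A at 65.7 and 15.8 CPM and TUBD1 at 12.5 and 3.08 CPM. TUBB had 772 and 639 CPM and TUBA1B 660 and 539 CPM, and the tubulin median was -0.28.

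**Figure D4:**
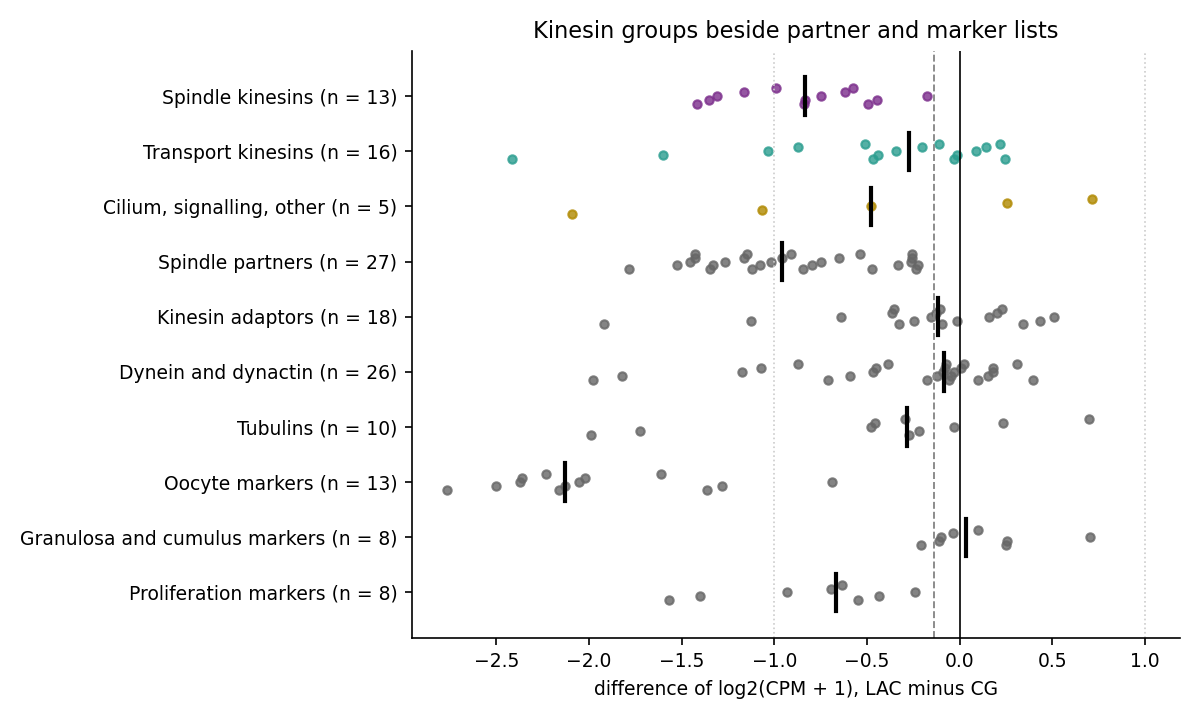
Difference of log2(CPM + 1), LAC minus CG, for each gene of the kinesin groups, of the genes that work with them and of 3 marker lists, with 1 point per gene, a black bar at each median and the dashed line at the coding median of -0.14. The spindle kinesins and their partners lie at medians of -0.83 and -0.96. The oocyte markers lie at -2.13, the proliferation markers at -0.66 and the granulosa and cumulus markers at 0.033.

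Markers of 2 of the cell types or states that use spindle kinesins moved in the same direction. Of the oocyte marker rows, 12 of 13 were lower, with a median of -2.13, and WEE2, an oocyte kinase, was at 1170 CPM in CG against 206 in LAC. None of the oocyte markers was at 0. Of 8 proliferation markers, 2 were lower, PCNA at 1599 and 539 CPM and RRM2 at 212 and 79.5 CPM, all 8 lay below 0 and the median was -0.66, with sums of 2802 and 1283 CPM. TOP2A had 273 and 230 CPM. None of the 8 granulosa and cumulus markers passed the rule, with 4 above 0 and 4 below. The part of the oocyte and proliferation markers in the kinesin differences was not tested. The ciliated epithelium markers, which bear on KIF6, KIF9 and KIF27, summed to 40.4 and 54.8 CPM, with CCDC39 at 36.5 and 41.2 CPM. DNAH5, a dynein of motile cilia and the 1 member past the rule, was at 3.33 and 13.3 CPM. DNAH9 went the other way, with 0.58 and 0.25 CPM, a difference of -0.34. FOXJ1, TEKT1 and RSPH1 were at 0 in both libraries, and the part of the others in the kinesin values was not tested. The fibroblast markers had 4 of 6 higher, with sums of 26.3 and 80.6 CPM, and the part of these cells in the value of KIF26B was not tested.

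Some kinesins had further copies in the annotation under other names, and how reads were divided among such rows is not known. For KIF2C, 3 such rows carry its description. LOC108176293 was at 64.6 CPM in CG against 23.7 in LAC, a difference of -1.41, LOC103345648 had 35.2 and 7.29 CPM, a difference of -2.13, and LOC103347539 had 3 and 10 estimated counts. Summed with its copies, KIF2C had 191 and 64.8 CPM, 2.95-fold lower (2.82 to 3.10). KIF26B with a neighbouring row described as the same gene had 39.3 and 64.8 CPM. KIF1A with its copy LOC103347325 had 1.40 and 0.97 CPM, a ratio of 1.44 with an interval that included 1 (0.93 to 2.31). KIF9 with its copy LOC100347489 had 5.44 and 3.00 CPM, 1.81-fold lower (1.43 to 2.32), far less than the bound for the KIF9 row alone. KIF3B, the partner of KIF3A, was counted only in a row merged with ASXL1, with 81.9 and 65.4 CPM, and has no value of its own here.

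The genes past the rule lay on 7 placed chromosome sequences and 2 unplaced ones in build OryCun2.0. KIF2C (MSTRG.12870) spans 121857299 to 121878843 on the minus strand of NC_013681.1, and KIF23 (MSTRG.23032) spans 490618 to 516733 on the plus strand of NW_003159419.1. KIF4A (MSTRG.19664) spans 48850737 to 48980907 on NC_013690.1, and KIF20B (MSTRG.17494) spans 37691978 to 37759921 on NC_013686.1, both on the plus strand. KIF5A (MSTRG.20860) spans 696071 to 724686 on NW_003159340.1, KIF21B (100356736) 70396864 to 70443948 on NC_013684.1 and KIF13B (MSTRG.2047) 40235655 to 40430015 on NC_013670.1, all on the plus strand. KIF24 (MSTRG.234) spans 19499068 to 19587106 on the plus strand of NC_013669.1 and KIF6 (MSTRG.10772) 29162242 to 29597864 on the minus strand of NC_013680.1. These spans cover exons and introns.

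The 13 assembled rows inside or next to kinesin genes did not all follow their hosts. Those of KIF26B and KIF13A lay above 0 as their hosts did. They had a median difference of 0.35, with 11 above 0, where 3672 intronic non-coding loci had a median of 0.44. Of the 13, 11 had a higher difference than the kinesin they lie at. A single row passed the rule, MSTRG.15455 in an intron of KIF26B, at 0.18 CPM in CG against 1.96 in LAC, where 9.78% of intronic loci were higher and 2.40% lower. KIF13B shows the contrast best: the gene was 2.06-fold lower in LAC, while its 6 intronic rows together were at 4.13 CPM in CG against 8.32 in LAC. Relative to the count of the gene, these rows went from 3.90% to 16.2%. The 2 intronic rows of KIF15 went from 0.97% to 3.40% of the host count, those of KIF26B from 0.90% to 3.89%, and the single rows of KIF13A and KIF5C from 10.7% to 16.1% and from 5.40% to 7.92%. The share of spliced reads was also lower in the LAC statistics, and its part in these values was not tested. MSTRG.6790, which starts 64 bases past the end of KIF5C, had 10.9 and 6.33 CPM, a difference of -0.69, where KIF5C itself had -0.44.

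The table of long non-coding transcripts gave the only values of all 3 libraries at kinesin genes. It listed 12 transcripts in introns of kinesins, 6 in KIF13B, 2 each in KIF15 and KIF26B and 1 each in KIF13A and KIF5C. Of these, 9 had their highest FPKM in LAC, 3 in HAC and 0 in CG, and 10 had their lowest in CG. In KIF13B, MSTRG.2048.1 was at 1.41 FPKM in CG, at 2.35 in LAC and at 0.99 in HAC, and MSTRG.2052.1 (NC_013670.1, 40247132 to 40248511) had 0.61, 1.64 and 0.85. Over the 12 transcripts the value in HAC lay nearer to CG in 9 and nearer to LAC in 3, and in KIF13B in 5 and 1, to be read beside the same background. The exception in KIF13B was MSTRG.2051.1, with 1.18, 1.81 and 1.70 FPKM. The value of HAC lay nearer to CG in KIF13A as well, where MSTRG.20758.1 had 1.53, 2.35 and 1.65 FPKM. MSTRG.15455.1 in KIF26B (NC_013684.1, 22208058 to 22209033) had 0.16, 1.77 and 0.24 FPKM and was the 1 transcript past the rule, higher in LAC than in CG and lower in HAC than in LAC. HAC was the highest library for MSTRG.6789.1 in KIF5C, with 0.93, 0.96 and 2.14 FPKM, for MSTRG.15454.1 in KIF26B, with 0.31, 0.55 and 1.45, and for MSTRG.2054.1 in KIF13B, with 0.98, 0.93 and 1.52. All 12 had 2.35 FPKM or less, and 11 have no strand.

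**Figure D5:**
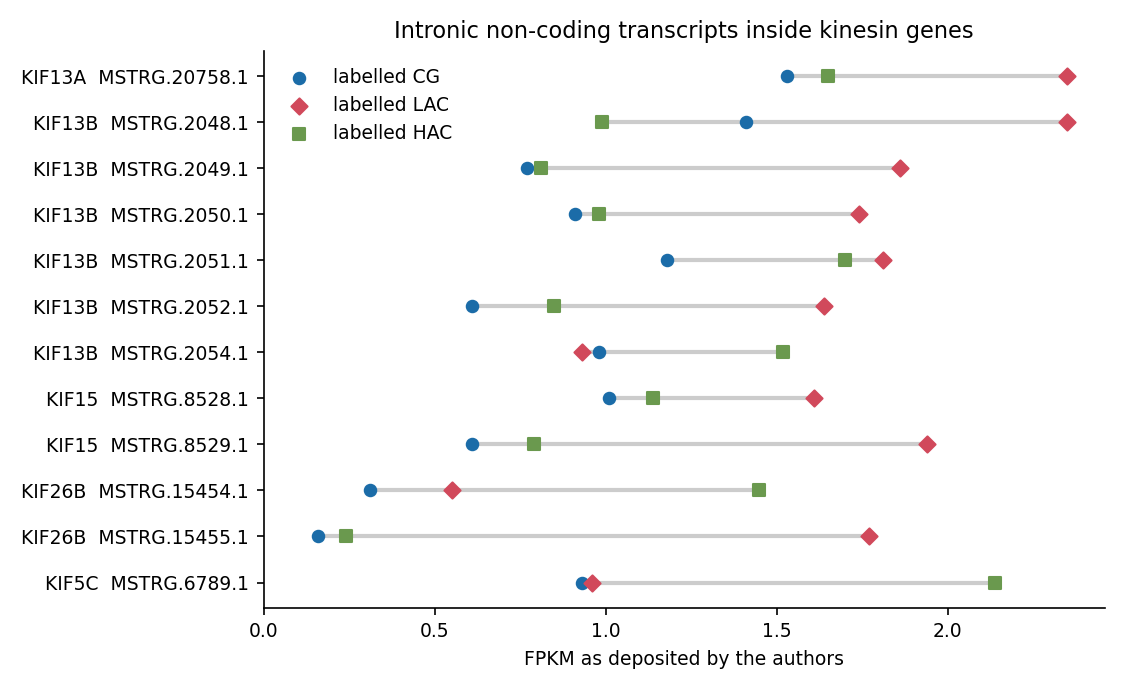
Deposited FPKM of the 12 long non-coding transcripts in introns of kinesin genes in the libraries labelled CG (blue circles), LAC (red diamonds) and HAC (green squares), joined by a grey line per transcript. LAC is highest for 9 of 12, and HAC for MSTRG.2054.1, MSTRG.15454.1 and MSTRG.6789.1. Of 3514 intronic transcripts of all genes, 2750 were also higher in LAC than in CG.

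The intronic transcripts at kinesins were set beside those of all genes. Between LAC and CG, 1 of the 9 with at least 1 FPKM was higher and 0 lower, with a median difference of log2(FPKM + 1) of 0.52, beside 15.0% higher, 5.52% lower and a median of 0.46 for 3514 intronic transcripts. Between HAC and CG, 0 of 7 passed, with a median of 0.31 (0.12 over all 12 without a minimum of FPKM), beside 6.45% higher, 4.58% lower and a median of 0.088 for 3056. Between HAC and LAC, 1 of 12 was lower, with a median of -0.40, beside 12.9% lower, 6.92% higher and a median of -0.38 for 3597. These comparisons share libraries and are not independent of each other.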

How the data were processed

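The members and gene lists were chosen with earlier results of these data known. Reads were processed with fastp and HISAT2 against OryCun2.0, per the submitters' processing notes, which give no versions. The sources used here name no program for the assembly of transcripts or the estimation of counts. The deposited gene tables hold an estimated count and an FPKM value per row, per the file headers, stacked in 1 file with other blocks. The deposited long non-coding table holds the authors' coverage signal and FPKM per transcript. A deposited count equalled coverage times length divided by 75 in 100% of 8651 CG and 8638 LAC loci with 1 transcript and coverage above 2, so a count stands for about 0.5 reads, and intervals were computed on halved counts. PCR reads without molecular identifiers are not independent molecules.

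Counts were scaled to CPM with TMM factors written from their formula (30% of ratios and 5% of levels trimmed; factors 1.01 and 0.99), with a pseudocount of 1 and a minimum of 10 estimated counts. Intervals are exact binomial 95% intervals, or Woolf intervals for ratios of ratios. A row without counts was given a floor of 3 reads, or 6 estimated counts. Long non-coding transcripts needed 1 FPKM in the higher library, and FPKM was used as deposited. The scaling and rule were tested on simulated data, with equal numbers of genes lowered and raised by the same fold. In these data 1653 coding genes were lower and 283 higher, a lopsided case that the simulation did not cover. Computation was done in Python 3.11.15 with SciPy 1.17.1, numpy 2.4.6 and pandas 2.3.3. Because the gene tables of LAC and HAC are the same, 2 per-sample columns went unused. Gene FPKM served as an alternative only. Any kinesin could be named, with full values for those past the rule, and of each other list up to 2 members with the highest mean CPM and 2 with the largest difference. The markers RBFOX3, SNAP25, FOXJ1, TEKT1 and RSPH1 were also named outside this limit. Promoter motifs and motor positions of kinesins were not analysed here.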

Additional observations from a re-analysis of the deposited data

How the results depend on the processing

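Every alternative kept all 9 lower kinesins below 0, in 81 of 81 values, but most of these values could not have turned. The filters on low genes leave each difference as it was, and another pseudocount cannot change its sign. Summing copies alters only KIF2C among the 9. Other scaling factors shifted log2 ratios by 0.18 or less in size. Only gene FPKM, and the copies of KIF2C, could have put a called kinesin above 0. A call was counted as reversed only for these 9 genes. Of all 306 values of single kinesins, unchanged ones included, 31 moved from the main value by more than their counting interval allows. The number of lower kinesins, with the share of coding genes lower in brackets, was 10 with median-of-ratios factors (11.4%) or library totals (11.3%), 7 with TMM factors from coding genes alone (8.93%; without KIF13B and KIF20B), 11 with a pseudocount of 0.1 (18.3%; with KIF17 higher), 6 with a pseudocount of 5 (6.06%; without KIF13B, KIF21B and KIF6), 8 at a mean of at least 1 CPM (13.1%; without KIF6), 8 with the authors' gene FPKM (9.51%; without KIF21B and KIF6, with KIF20A) and 9 with copies summed (11.0%), an alternative chosen after seeing the data. Coding genes alone shifted log2 ratios by 0.18. The spindle median stayed between -0.86 and -0.66 and the transport median between -0.39 and -0.11. With a size rule of 2 (2.15% of coding genes), 2 kinesins were lower, KIF5A and KIF24: 0 of the spindle, 1 of transport and 1 of the others. That rule left 0 spindle partners, 0 adaptors, 0 dynein and dynactin genes and 0 tubulins. A pseudocount of 5 left 1 transport kinesin, 1 other kinesin and 1 adaptor lower. A mean of at least 1 CPM and gene FPKM each left 1 other kinesin lower. The median of the other kinesins was -2.15 with a pseudocount of 0.1 and reversed to 0.26 at a mean of at least 1 CPM, where fewer genes remained. TMM factors from coding genes gave 8 spindle partners and 1 adaptor lower, and reversed the medians of the adaptors to 0.057 and of dynein and dynactin to 0.091. With median-of-ratios factors the intronic transcripts had medians of 0.26 for LAC against CG and 0.28 for HAC against CG, and 0 were lower in HAC than in LAC. No paired analysis was possible because each group has 1 library. The planned search of promoters and proteins was not run. Depth limits KIF1A, KIF5A, KIF6, KIF9 and KIF17, which had at most 37 estimated counts in 1 library.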

Other observations

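Of 13 rows under other names that carry a kinesin description, 3 hold several genes each, so their counts cannot be given to the kinesin. The row of ANKRD16, AHCTF1 and LOC103350906 was at 232 CPM in CG against 158 in LAC, and the row of LOC103344998 and ZNF157 had 7.30 and 2.81 CPM. LOC103352409, described as KIF27 and overlapping KIF27 by 21466 bases on the opposite strand, had 0.63 and 1.05 CPM.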
